A study of Homo sapiens with 18 samples.

Results

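The comparison of GFP low with GFP high cells at 48 h was made on 6 of the 18 samples of the series, 3 labelled GFP high and 3 labelled GFP low, over 71318 regions of open chromatin. Samples were chosen by their labels alone, and all regions were kept. The cells were Raji, a line from a Burkitt lymphoma, which is a cancer of germinal-centre B cells, and the libraries were made by Omni-ATAC-seq, which reads out open DNA through the adapters that a transposase leaves in it. The series follows chromatin while the SMARCA4 protein is degraded through an auxin-inducible degron, a tag that lets a plant hormone trigger removal of the tagged protein. Every sample, of both GFP levels and of 24, 48 and 72 h, carries the genotype Smarca4+/+. The labels name no dose of auxin and do not say what GFP reports, so the groups are named here by GFP level only. Column names carry a D number and a V number, and the D number was read as the time (24, 48 and 72 h in order), which the labels do not spell out. Columns that share a D number and a GFP level were the ones that differed least. Raji is a single line. The titles call the 3 samples of a group replicates, and nothing in the labels says that the libraries came from separate cultures.

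SMARCA4, also called BRG1, is the ATPase motor of BAF complexes, which slide and evict nucleosomes and are known for keeping enhancers open. SMARCA2 is the alternative motor. Enhancers are stretches of regulatory DNA that often lie far from the genes they act on, while promoters lie at the start of genes and are commonly rich in the CG dinucleotide. In germinal-centre B cells, signalling from the B-cell receptor and a small set of lineage factors such as PAX5, EBF1 and IKZF1 set the identity and the fate of the cell.

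The counts of 1 GFP level at 48 h came in 3 columns whose differences were counting noise times a fixed factor, with a ratio of observed to counting variance of 1.78 to 1.80. The columns of a GFP level were summed and counted as 1 library, of 29503529 counts for GFP high and 28161886 for GFP low, so the 48 h libraries alone gave no p-value. The test used 6 libraries, 1 for each GFP level and time, and took its spread from how the GFP difference varied between 24 and 72 h, pooled over peaks. It assumes that the 48 h libraries vary like the others. Values below are library-scaled counts (CPM) in each of the 3 columns, and log2 changes are GFP low over GFP high with the standard error (SE) of the edgeR fit. Coordinates of peaks are those of the deposited file, on hg38. Distances are from the centre of a peak to an end of a protein-coding gene. Of 8 B-cell markers, 6 had a peak within 1 kb of a gene end, among them MS4A1, which codes for CD20, at 75.4 CPM in GFP high against 84.5 in GFP low, EBF1 at 44.0 and 42.1 and PAX5 at 28.8 and 25.6. BLK had no peak. Of the markers of other cells, 6 of 16 T-cell, 2 of 15 myeloid and 4 of 15 epithelial or stromal genes had such a peak. The summed levels of their strongest gene-end peaks, GFP high first, were 86.3 and 77.9, 19.2 and 17.8, and 49.0 and 44.1 CPM, against 209.0 and 209.3 CPM for the B-cell markers. The part of other cells in the results was not tested beyond these values.

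Start-site sequences are shown first, because the start-site peaks called lower in GFP low cells had a lower median GC content than the other start-site peaks. The sets overlapped: GC content ran from 33.3% to 74.3% in the lower set and from 45.0% to 82.0% in the higher set. RefSeq start sites of GRCh38.p14 were matched to 6819 peaks. For the 5 start-site peaks with the smallest p in each direction, the 150 bases before the start site are printed 5′ to 3′ on the strand of the gene, with every CG dinucleotide in capitals. PTPRO codes for a receptor-type tyrosine phosphatase, OR51A7 for an olfactory receptor, ELMO1 for an activator of the GTPase RAC, SH2B2 for an adaptor of tyrosine kinase signalling and ITIH1 for a heavy chain of the inter-alpha-trypsin inhibitor. RPL13A codes for a protein of the large ribosomal subunit, WWOX for an oxidoreductase with WW domains, SP4 for a zinc finger factor that binds GC boxes, DCUN1D4 for a protein of cullin neddylation and GOLIM4 for a Golgi membrane protein.
PTPRO, lower, chr12:15546461-15546610, plus strand: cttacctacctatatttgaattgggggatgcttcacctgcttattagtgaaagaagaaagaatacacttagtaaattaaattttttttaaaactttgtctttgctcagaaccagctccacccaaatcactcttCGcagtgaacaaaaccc
OR51A7, lower, chr11:4903633-4903782, plus strand: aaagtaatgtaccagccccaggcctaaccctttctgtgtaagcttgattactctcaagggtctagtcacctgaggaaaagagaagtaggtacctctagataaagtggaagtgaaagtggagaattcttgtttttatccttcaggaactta
ELMO1, lower, chr7:36985079-36985228, minus strand: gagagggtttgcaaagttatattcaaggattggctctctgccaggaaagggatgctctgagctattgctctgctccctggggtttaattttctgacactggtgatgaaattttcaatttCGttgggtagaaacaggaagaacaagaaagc
SH2B2, lower, chr7:102289316-102289465, plus strand: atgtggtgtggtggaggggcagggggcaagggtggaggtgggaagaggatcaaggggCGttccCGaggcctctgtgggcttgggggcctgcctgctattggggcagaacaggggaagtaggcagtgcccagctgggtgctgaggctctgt
ITIH1, lower, chr3:52779771-52779920, plus strand: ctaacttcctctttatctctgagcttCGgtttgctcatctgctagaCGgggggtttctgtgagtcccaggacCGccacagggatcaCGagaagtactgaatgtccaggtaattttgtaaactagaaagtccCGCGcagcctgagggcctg
RPL13A, higher, chr19:49487458-49487607, plus strand: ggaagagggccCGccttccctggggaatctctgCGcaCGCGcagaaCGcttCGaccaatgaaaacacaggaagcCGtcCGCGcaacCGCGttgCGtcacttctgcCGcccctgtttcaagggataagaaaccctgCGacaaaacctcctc
WWOX, higher, chr16:78099504-78099653, plus strand: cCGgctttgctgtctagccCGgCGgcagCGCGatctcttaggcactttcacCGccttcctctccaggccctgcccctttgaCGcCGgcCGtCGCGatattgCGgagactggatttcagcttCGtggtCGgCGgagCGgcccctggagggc
SP4, higher, chr7:21427933-21428082, plus strand: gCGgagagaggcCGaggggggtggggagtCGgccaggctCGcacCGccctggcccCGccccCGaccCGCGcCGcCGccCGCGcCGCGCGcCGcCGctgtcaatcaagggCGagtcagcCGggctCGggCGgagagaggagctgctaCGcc
DCUN1D4, higher, chr4:51843003-51843152, plus strand: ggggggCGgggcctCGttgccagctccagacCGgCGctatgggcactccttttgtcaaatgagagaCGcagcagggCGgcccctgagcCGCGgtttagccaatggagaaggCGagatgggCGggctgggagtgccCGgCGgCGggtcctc
GOLIM4, higher, chr3:168095925-168096074, minus strand: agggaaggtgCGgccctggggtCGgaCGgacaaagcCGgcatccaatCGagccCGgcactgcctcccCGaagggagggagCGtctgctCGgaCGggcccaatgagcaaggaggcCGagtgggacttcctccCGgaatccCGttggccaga
The upstream stretches of the lower examples held 1, 0, 1, 2 and 6 CG dinucleotides in the order printed, and those of the higher examples held 14, 16, 23, 13 and 13. The GC content of the whole promoter window was 37.7%, 39.7%, 41.7%, 63.0% and 53.7% in the lower examples. Other lower start sites were rich in CG, such as that of TJP3, a tight junction protein, with a GC content of 70.3% and 24 CG dinucleotides in its window.

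At 48 h, 6222 of 71318 peaks (8.72%) were lower and 1043 (1.46%) were higher in GFP low than in GFP high cells by edgeR's quasi-likelihood test with Benjamini-Hochberg adjustment, at an adjusted p under 0.05. The falls were larger than the rises. Peaks called lower had a median fitted log2 change of -0.94 and median levels of 9.42 CPM in GFP high against 4.87 in GFP low, while peaks called higher had a median of 0.44 and median levels of 40.1 and 52.8 CPM. The lower peaks lay in or within 50 kb of 3060 genes and the higher ones of 812. By size alone, 2746 peaks (3.85%) were at least 2-fold lower and 161 (0.226%) at least 2-fold higher, and 2511 and 119 of these were also called. Leaving out 1 GFP high column raised the 161 to between 254 and 345. The 3 GFP low columns lay below all GFP high columns in 24.3% of peaks and above them in 16.4%. Among the called peaks, columns did not overlap for 6164 of the lower and 1033 of the higher ones, which repeats the same counts and is no further evidence. The median difference of all peaks was -0.01.

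These counts rest on the spread that edgeR pooled over peaks, a biological coefficient of variation of 9.38%. DESeq2, on the same 6 libraries and model, called 26 peaks lower and 0 higher. At an unadjusted p under 0.05 it had 3343 lower and 322 higher peaks, and it gave an adjusted p to 3513 of the 6222 lower and 779 of the 1043 higher peaks. All 26 were among the 6222. None of them lay at a gene end, 11 lay in gene bodies and 15 between genes, and 24 were at least 2-fold lower at 24 h and 24 at 72 h.

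Some of the deepest falls, among called peaks with a mean of at least 100 counts and no overlap of columns, lay inside or beside genes of varied function. A peak inside PIK3CG, the gene of the phosphoinositide 3-kinase catalytic subunit gamma, at chromosome 7, 106883514 to 106884014, held 14.3, 11.1 and 14.3 CPM in the GFP high columns and 2.26, 2.78 and 3.49 in the GFP low columns. The highest GFP low column was below the lowest GFP high column, as the rule of choice required. Accessibility changed by -2.20 ± 0.26 on the log2 scale (SE, edgeR adjusted p = 3.34e-12). The difference of log2 CPM was -2.17, with a 95% interval of -2.63 to -1.72 that covers only counting error widened by the spread of columns, from 391 and 81 counts. It was one of the peaks that DESeq2 also called. The peak of the gene end, 0.04 kb from the gene, held 28.3 CPM in GFP high against 22.2 in GFP low and did not pass (-0.35 ± 0.18, adjusted p = 0.207). Inside the gene, 2 further peaks were called lower, from 25.96 to 13.65 CPM and from 11.25 to 6.79 CPM.

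A peak inside CHCHD3, a gene of mitochondrial inner membrane organisation, at chromosome 7, 133059905, held 5.91, 4.37 and 7.23 CPM in GFP high against 0.56, 1.22 and 1.65 in GFP low, a log2 change of -2.33 ± 0.35 (edgeR adjusted p = 4.87e-08). A peak inside AHI1, a gene of the primary cilium, at chromosome 6, 135465252, held 6.69, 8.12 and 7.96 CPM against 2.03, 2.00 and 1.26. Its log2 change was -2.13 ± 0.31. Both peaks thus held less than 3 CPM in each GFP low column and more than 4 CPM in each GFP high column. Further falls of about this size were inside FAM107B (-2.13) and MTAP (-2.08), an enzyme of methionine salvage, and outside DHCR7 (-2.10), the last enzyme of cholesterol synthesis, and the predicted gene LOC124901495 (-2.14). Of the peaks with no protein-coding gene within 50 kb, those at 142041670 of chromosome 8, 108247520 of chromosome 4 and 72190161 of chromosome 17 had log2 changes of -2.20, -2.06 and -2.04. Of these falls, DESeq2 called those at LOC124901495 and on chromosome 17 beside that in PIK3CG.

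The largest rises began from low levels. A peak inside OXCT1, an enzyme of ketone body use, at chromosome 5, 41754786, held 1.23, 2.50 and 2.01 CPM in GFP high against 5.65, 7.79 and 4.07 in GFP low. The log2 change was 1.57 ± 0.34 (edgeR adjusted p = 0.000294). Peaks inside KCNJ6, a potassium channel gene (1.43), ADGRA3, an adhesion receptor gene (1.31), and TRPM3, a cation channel gene (1.25), and outside COL4A1, a basement membrane collagen gene (1.25), and NCEH1, a cholesterol ester hydrolase gene (1.22), rose from 2.03 to 2.71 CPM in GFP high to 5.33 to 6.33 in GFP low. A different pattern held for RGS1, which dampens chemokine receptor signalling and so limits migration. The peak 0.6 kb outside the gene, at chromosome 1, 192580368 to 192580868, held 9.59, 10.9 and 8.33 CPM in GFP high against 22.03, 23.03 and 20.34 in GFP low (1.19 ± 0.21, adjusted p = 5.66e-06). It was the only called one of 11 peaks assigned to RGS1, and the strongest, 0.18 kb from the gene, held 45.9 and 50.5 CPM (0.14, adjusted p = 0.56). None of these rises was called by DESeq2.

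**Figure D1:**
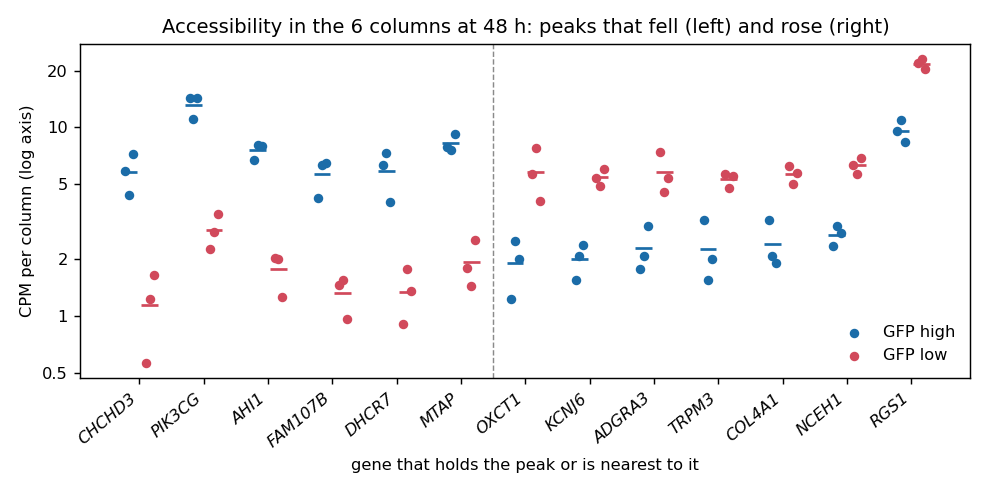
CPM (log axis) in each of the 6 columns at 48 h for peaks named by their gene. To the left of the dashed line are 6 that fell in GFP low, to the right 7 that rose. Points are columns and short bars the mean of 3 columns, which were counted as 1 library and are not taken as independent. GFP low columns of PIK3CG sit at 2.26 to 3.49 CPM, below 11.1 to 14.3 in GFP high, and those of RGS1 at 20.34 to 23.03, above 8.33 to 10.9.

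Most falls lay away from gene ends. Gene ends, meaning 1 kb or less from either end, held 13707 peaks, of which 171 (1.25%) were called lower, against 3189 of 30793 in gene bodies (10.4%) and 2862 of 26818 between genes (10.7%). With distance, the share called lower went from 7.15% at 1 to 5 kb through 9.85% at 5 to 10 kb to 12.4% at 100 to 250 kb, and it was 534 of 5339 beyond 250 kb. Higher calls made up 3.56% of gene-end peaks, 0.848% of those in gene bodies and 1.10% of those between genes. The gene-end share of higher calls depended on how libraries were scaled: with loess scaling over abundance it was 0.409%, below the 1.08% of gene bodies and the 1.74% between genes. The low share of lower calls at gene ends held with loess, at 0.876% against 7.16% and 7.76%. Gene ends were also the stronger peaks, with a median of 23.3 CPM in GFP high against 7.02 and 6.24. Within the fifth of all peaks with the most counts, 0.199% of gene ends, 6.54% of gene-body peaks and 11.2% of intergenic peaks were called lower. Neighbouring peaks are not independent, and these shares are descriptions.

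Genes with a fallen distal peak did not for the most part have a fallen gene end. Of 2939 genes with at least 1 peak called lower more than 1 kb from gene ends, 1681 had a gene-end peak, and the strongest such peak was called lower in 30 (1.79%) and higher in 98 (5.83%). Its median log2 change was 0.12. The 4746 genes with distal peaks of which none was called lower gave a median of 0.12, with 0.716% lower and 5.69% higher. Falls also lay near each other. Among peaks away from gene ends, 23.03% of the 5675 with a lower neighbour within 10 kb were called lower, against 9.14% of those whose neighbours were not called lower and 9.13% of those without a neighbour.

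**Figure D2:**
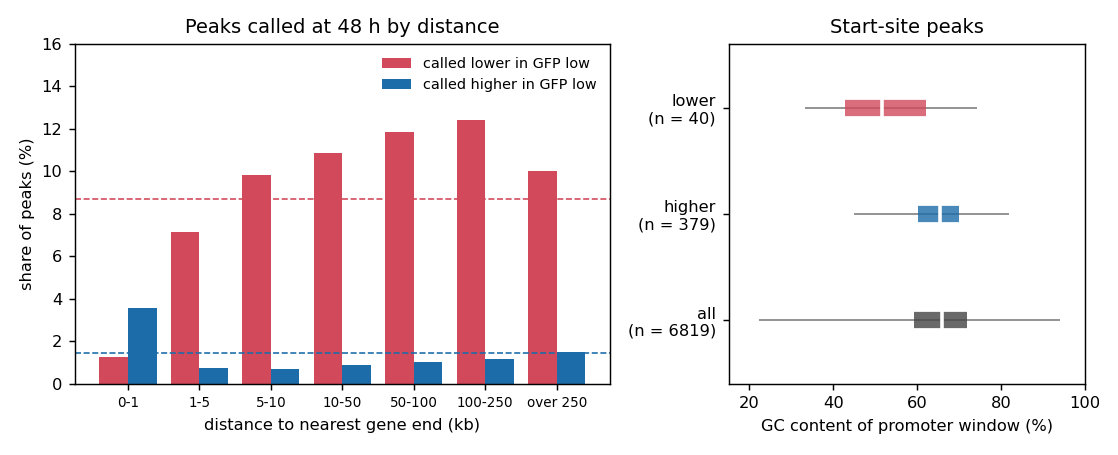
Left, the share of peaks called lower and higher in GFP low at 48 h by distance from the nearest gene end, with dashed lines at 8.72% and 1.46%, the shares over all peaks. Right, GC content of the RefSeq promoter window of start-site peaks called lower or higher and of all of them (line, full range; bar, quartiles; white mark, median), with the lower set at a median of 51.7% and all at 66.0%.

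Several genes lost accessibility at many of their peaks, beside 8.72% called lower, 3.85% at least 2-fold lower and 51.3% below 0 among all peaks. They were picked for their number of calls, so their counts are a description. HIVEP3, a zinc finger transcription factor gene, and CLVS1, which codes for a lipid-binding protein, each had 11 peaks called lower, of 30 and 25. In HIVEP3, 26 of the 30 peaks were lower in GFP low, 6 at least 2-fold, and both peaks at its gene end, at 38.0 and 16.2 CPM in GFP high against 43.2 and 17.4 in GFP low, did not pass. DLG2, a scaffold of synapses, had 10 of 53 peaks called lower and 1 called higher. PARD3B, a cell polarity gene, had 9 of 18, the largest share of these genes, with a median difference of -0.74 over its peaks and -0.81 at 24 h and -0.62 at 72 h. ARID1B, a DNA-binding BAF subunit, ETV6, an ETS repressor, and RIN3, an exchange factor for RAB5, had 9 of 54, 9 of 28 and 9 of 20, with 1 peak called higher at ARID1B and 1 at ETV6. Higher calls, 1.46% of all peaks, numbered at most 3 for a gene. ECT2, which activates RHOA for the division of the cell, had 3 of 5 called higher, 1 at its gene end (85.7 CPM in GFP high against 108.3 in GFP low, 0.34 ± 0.10, edgeR adjusted p = 0.00905) and 2 distal ones of 4.95 and 5.15 CPM that rose to 9.60 and 8.53. OXCT1 had 3 of 8 called higher.

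Start-site peaks called lower differed in their median composition. Of 6819, only 40 (0.587%) were called lower and 379 (5.56%) higher. The promoter window, from 250 bases before to 50 after the start, had a median GC content of 51.7% in the lower set, 65.3% in the higher set and 66.0% over all. CG dinucleotides numbered a median of 5.5, 27 and 27. Weak peaks alone gave the same order: in the fifth of start-site peaks with the fewest counts, 33 of 1364 were called lower, with a median GC content of 49.7% against 64.7% in the others and 4 CG dinucleotides against 24. Lower calls made up 1.94% of the fifth of start-site peaks with the lowest GC content and 0.0739% of that with the highest. The windows printed above belong to these sets. The PTPRO peak held 11.38, 6.97 and 10.98 CPM in GFP high against 4.63, 4.23 and 3.29 in GFP low (-1.29 ± 0.26, edgeR adjusted p = 9.29e-05). That of ELMO1 held 11.9, 9.58 and 8.88 CPM against 4.63, 3.67 and 4.75 (-1.20 ± 0.26). That of SH2B2, a GC-richer window, held 20.7, 20.8 and 20.8 CPM against 9.38, 12.35 and 10.4 (-0.96 ± 0.21). In all 3 the columns of the GFP levels did not overlap, as in 6164 of all 6222 lower calls, which is no further evidence. All 3 were also lower at 24 and 72 h, with log2 differences of -0.23 to -1.49, as were 6134 of the 6222. OR51A7 (-1.32 ± 0.27) was lower at both times too, while ITIH1 (-0.93 ± 0.21) had a difference of 0.06 at 24 h.

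The higher start sites were strong peaks with small differences. The RPL13A peak went from 133.9 CPM in GFP high to 187.7 in GFP low (0.49 ± 0.08, edgeR adjusted p = 2.16e-07), that of WWOX from 74.0 to 106.6 (0.53 ± 0.10) and that of SP4 from 149.4 to 196.9 (0.40 ± 0.07). Those of DCUN1D4 and GOLIM4 changed by 0.46 ± 0.09 and 0.38 ± 0.08. The scaling sets such values. With loess scaling these changes were 0.19, 0.32, 0.09, 0.22 and 0.09 in the order given, of which that of WWOX alone was called, and of all start-site peaks 29 were called lower and 26 higher. With start-site peaks fitted alone, TMM scaling called 17 lower and 0 higher, with 184 higher at an unadjusted p under 0.05, and scaling on GC content called 14 lower and 0 higher, with 306 higher unadjusted. DESeq2 called none of the 10 examples. Across start-site peaks, the Pearson correlation of GC content with the GFP difference at 24, 48 and 72 h was 0.22, 0.00 and 0.17 over 6819 peaks that share the same libraries.

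Short motifs were counted in the same windows on both strands. TGANTCA, the AP-1 motif, was in 4 of 40 windows called lower, 1.85% of those called higher and 3.75% of all. ATGCAAAT, the octamer bound by OCT factors, was in 3, 1.32% and 1.496%, and GAGGAAGT, the PU.1 motif, in 6, 3.43% and 2.73%. CAGGTG, the E-box of E proteins, was in 14, 10.8% and 17.6%. GGGCGG, the GC box, was in 14 of the 40, 79.4% and 73.3%, and CCGGAAG, an ETS motif, in 2 of the 40, 24.0% and 22.4%. CCAAT was in 13 of the 40, 51.98% and 39.5%. These shares were not tested. A match is a string of letters in a window and says nothing of whether a factor is bound.

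Of 21 gene lists, counts are given beside 8.72% lower and 1.46% higher over all peaks, and no list was tested. Calls in the lists are those of edgeR. Among the list peaks named in the text, DESeq2 called only that inside PIK3CG. By share of peaks called lower, T-cell genes (8 of 53, 15.1%) and MHC class II genes (3 of 21, 14.3%) stood highest. B-cell receptor signalling, among the largest lists, had the most lower calls in number, 44 of 334 peaks (13.2%), with 4 higher. Its median difference was -0.14, and 17 peaks were at least 2-fold lower. Lower peaks alone were found at 13 of its 26 genes with peaks, both directions at 2 and higher ones alone at 2. PIK3CG had 3 of 7, and PIK3R1, a regulatory subunit of related kinases, 4 of 12. Among kinases, LYN had 5 of 29, SYK 3 of 18, FYN 3 of 21 with 1 higher, PRKCB 3 of 20 and BTK 1 of 7. A peak inside DAPP1, an adaptor that binds the lipid product of phosphoinositide 3-kinase, held 8.81, 7.91 and 7.59 CPM in GFP high against 1.81, 2.89 and 2.62 in GFP low (-1.72 ± 0.29, adjusted p = 2.4e-06). The gene-end peak of DAPP1 went the other way, from 91.5 to 110.0 CPM (0.27 ± 0.09, adjusted p = 0.0446), as did those of FYN (103.6 to 125.9), ITPR1 (82.5 to 102.6) and BCL10 (103.3 to 126.9). With loess scaling the list had 28 lower and 0 higher peaks.

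**Figure D3:**
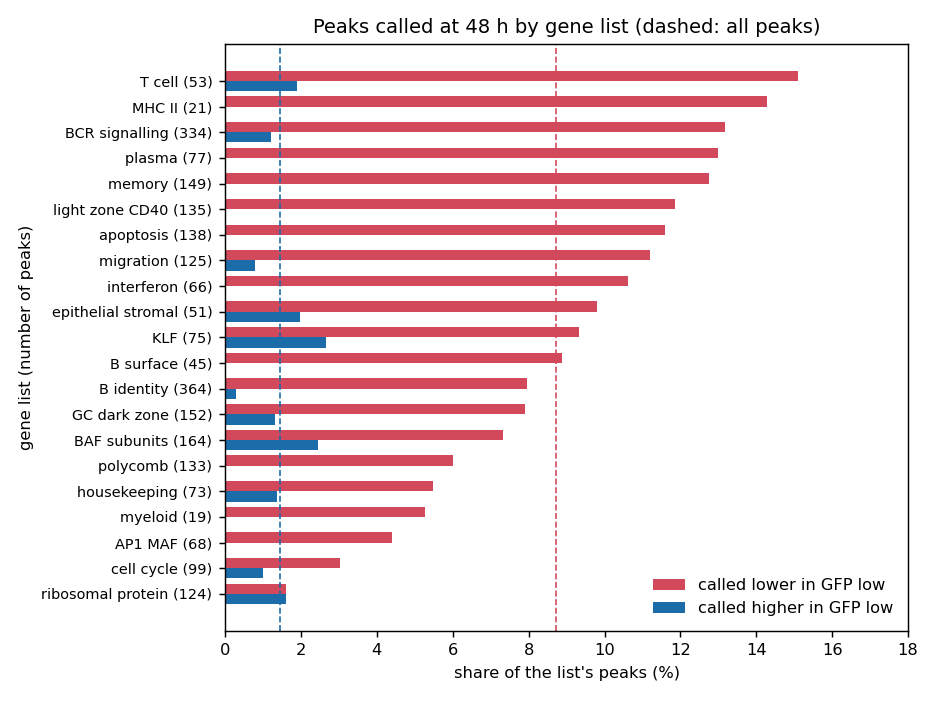
Share of the peaks of each gene list called lower and higher in GFP low at 48 h, with the number of peaks in brackets and dashed lines at 8.72% and 1.46%, the shares over all peaks. B-cell receptor signalling sits at 13.2% lower, T-cell genes at 15.1% and ribosomal protein genes at 1.61%, and MHC class II, with 21 peaks, rests on 3 calls.

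B-cell identity factors had 29 of 364 peaks called lower (7.97%) and 1 higher, with a median of -0.09. The lower calls were at 11 of 22 genes and the higher one at TCF12. ID3, an inhibitor of E proteins, had 4 of 5, and the peak 33.2 kb outside it held 14.6, 18.4 and 15.3 CPM in GFP high against 9.04, 5.34 and 7.36 in GFP low (-1.15 ± 0.23). IKZF1, which codes for Ikaros, had 6 of 35, and a peak 5.18 kb outside it changed by -0.87 ± 0.18. PAX5, the factor of B-lineage commitment, had 2 of 15. The lower of these, inside the gene, held 13.8, 15.2 and 14.8 CPM against 7.004, 5.90 and 7.17 (-1.12 ± 0.23, edgeR adjusted p = 0.000104), while the PAX5 gene-end peak changed by -0.17. Of EBF1 peaks 3 of 40 were called lower, and of BACH2 peaks 1 of 25. Of the surface markers, 4 of 45 peaks were called lower and 0 higher, 1 each at CD72, CR2, FCER2 and MS4A1. The MS4A1 call was lost when any 1 of 4 columns was left out, with DESeq2 size factors and with loess scaling.

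Germinal-centre dark zone genes, which serve division and mutation, had 12 of 152 peaks called lower (7.89%) and 2 higher. Peaks outside MYBL1 (-1.50 ± 0.24), EZH2 (-1.22 ± 0.25) and BCL6 (-0.99 ± 0.22), the master repressor of the germinal centre, fell, and BCL6 also had the 2 higher peaks. The gene-end peak of LMO2 went from 29.4 to 19.2 CPM (-0.62 ± 0.18, edgeR adjusted p = 0.0124). Light zone and CD40 target genes, which serve selection, had 16 of 135 lower (11.9%) and 0 higher, at 12 of 20 genes. Their examples were CCL17 (-1.15 ± 0.22), the costimulatory ligand CD86 (-0.99 ± 0.22) and the adhesion receptor CD44 (-1.26 ± 0.29). IRF4 and CD83 had 2 peaks each called lower, and the gene-end peak of BCL2A1, an inhibitor of apoptosis, went from 9.83 to 6.12 CPM (adjusted p = 0.0475).

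Memory B-cell genes had 19 of 149 lower (12.8%) and 0 higher, with a median of -0.17. TLE3, a corepressor, had 5 of 13, 2 at least 2-fold, and CCR6 and CD27 had 3 each. FCRL5 had 1 of 6, 10.1 kb outside the gene, at 9.93, 7.08 and 6.59 CPM in GFP high against 3.95, 2.00 and 3.88 in GFP low. FCRL4, an Fc receptor-like gene, had its start-site peak alone of 6, at 15.8, 12.7 and 13.9 CPM against 7.004, 7.90 and 7.17 (-0.94 ± 0.23). Plasma cell genes had 10 of 77 lower (12.99%) and 0 higher. A peak 32.0 kb outside PRDM1, which codes for BLIMP1, the regulator of plasma cell fate, held 32.8, 30.8 and 35.0 CPM against 18.9, 17.9 and 18.2 (-0.84 ± 0.18, edgeR adjusted p = 0.000227). The GFP high columns all stood above 30 and the GFP low columns all below 19, and columns were separate in most called peaks. Peaks inside CD38 (-1.33 ± 0.29) and outside TXNDC5 (-1.25 ± 0.29) also fell. With loess scaling the memory list had 12 and the plasma cell list 7 lower peaks.

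Migration genes had 14 of 125 lower (11.2%) and 1 higher, the RGS1 peak above. The gene-end peak of ITGAL, the alpha chain of the integrin LFA-1, held 13.3, 16.8 and 13.7 CPM in GFP high against 6.55, 6.90 and 5.81 in GFP low (-1.19 ± 0.23, edgeR adjusted p = 4.45e-05). CXCR5, the receptor that leads B cells into follicles, had 2 of 10 peaks called lower (-0.72 ± 0.19 for the stronger), and its gene-end peak changed by -0.09. Apoptosis genes had 16 of 138 lower (11.6%) and 0 higher. CDKN1A, which codes for the cell cycle inhibitor p21, had 5 of 8, 3 of them at least 2-fold, and a peak near PMAIP1, which codes for NOXA, changed by -1.14 ± 0.23. Interferon genes had 7 of 66, KLF genes 7 of 75 with 2 higher, and AP-1 and MAF genes 3 of 68. Of the last, the peak outside BATF3 fell from 11.6, 14.2 and 12.9 CPM to 4.41, 4.23 and 5.42 (-1.45 ± 0.25), while BATF and BACH1 lost their calls with loess scaling. Of 15 MHC class II genes 5 had peaks, with 3 of 21 lower, and those of CD74 and CIITA lost their calls with loess scaling.

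Lists of basic cell function had lower calls at shares under that of all peaks. The 52 cytosolic ribosomal protein genes of the list, which does not hold RPL13A, had 2 of 124 peaks lower and 2 higher (1.61% each), with a median of 0.00 at 48 h, 0.23 at 24 h and 0.15 at 72 h. Cell cycle genes had 3 of 99 lower and 1 higher, the gene-end peak of the replication helicase subunit MCM3, which went from 99.2 to 123.0 CPM (0.31 ± 0.09, edgeR adjusted p = 0.00979) and to 0.06 with loess scaling. Housekeeping genes had 4 of 73 lower and 1 higher, the gene-end peak of the glycolytic enzyme PGK1 (55.6 to 75.7 CPM, 0.45 ± 0.11), whose call was lost with loess scaling. Lower calls of the 3 lists included peaks outside RPL11 (-1.075 ± 0.23) and RPLP1 (-1.06 ± 0.30). Others lay inside CCND3 (-0.87 ± 0.22) and CDK6 (-0.74 ± 0.24) and outside YWHAZ (-0.70 ± 0.18) and PPIA (-0.62 ± 0.18). Position differed too, with 64 of 124 ribosomal protein peaks and 30 of 364 B-cell identity peaks at gene ends. Away from gene ends, 2 of 60 ribosomal protein, 3 of 61 cell cycle and 4 of 49 housekeeping peaks were called lower. Of B-cell identity peaks there, 28 of 334 (8.38%) were, against 10.5% of all peaks away from gene ends. Whether lists differ beyond position was not tested.

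Among BAF subunit genes, 12 of 164 peaks were lower (7.32%) and 4 higher, and 20 of 27 genes with peaks had neither. Of the lower ones, 9 were at ARID1B, and the others at BICRAL, ACTL6B and SMARCA4. The SMARCA4 gene-end peak held 19.3, 18.8 and 20.9 CPM in GFP high against 15.8, 16.3 and 17.7 in GFP low and did not pass (-0.24 ± 0.20, edgeR adjusted p = 0.487). At 24 and 72 h its differences were 0.67 and 0.32. A SMARCA4 peak inside the gene changed by -0.72 ± 0.24 (adjusted p = 0.0342), a call lost with loess scaling and without any 1 of 3 columns. Of the SMARCA2 gene-end peaks, the stronger held 77.6, 86.0 and 76.2 CPM in GFP high against 88.8, 100.3 and 100.9 in GFP low (0.28 ± 0.10, adjusted p = 0.0434), and its change was 0.07 with loess scaling. Its call was lost without any 1 of 4 columns. The degron removes protein, and these values therefore check no label. Polycomb genes, whose complexes oppose BAF, had 8 of 133 lower (6.02%) and 0 higher, with examples outside EED (-1.43 ± 0.26) and inside PCGF5 (-1.04 ± 0.25).

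The falls at 48 h were also present at the other times. Of the 6222 peaks called lower, 6134 (98.6%) were below 0 at both 24 and 72 h, where 38.9% of all peaks were. This is not independent of the call, since the spread came from those times. Their median differences of log2 CPM were -0.97, -0.93 and -0.77 at 24, 48 and 72 h, and 2909 of them were at least 2-fold lower at 24 h and 1600 at 72 h. Of the 2746 peaks at least 2-fold lower at 48 h, a set that rests on the 48 h libraries alone, 2718 (99.0%) were below 0 at both other times. The rises were present at the other times in part. Of the 1043 called higher, 880 (84.4%) were above 0 at both other times, where 39.5% of all peaks were, with medians of 0.19, 0.44 and 0.25. Of the 161 at least 2-fold higher, 89 (55.3%) were, with medians of 0.23, 1.10 and 0.29, and 1 was at least 2-fold higher at all 3 times. Members chosen for their value at 48 h are more extreme at 48 h for that reason.

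**Figure D4:**
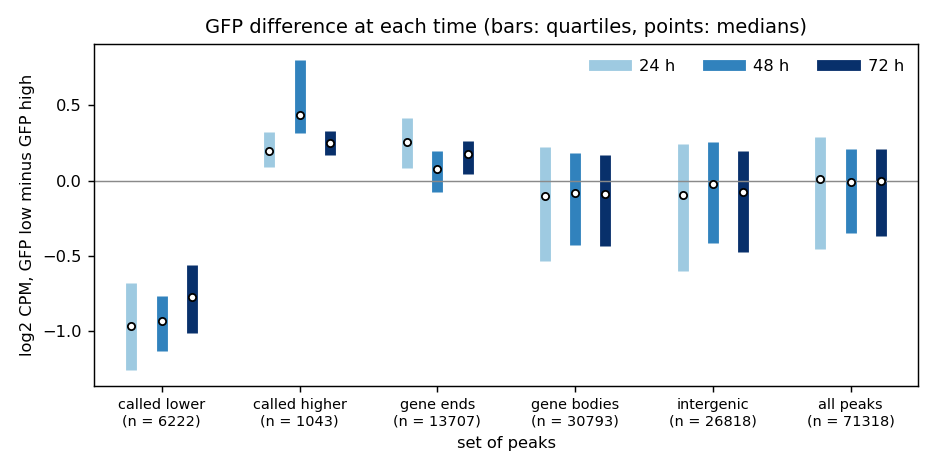
Difference of log2 CPM, GFP low minus GFP high, at 24, 48 and 72 h for peaks called at 48 h, for the 3 position classes and for all peaks (bars, quartiles; points, medians). Peaks called lower have medians of -0.97, -0.93 and -0.77, and gene ends sit lowest at 48 h, at 0.08 against 0.25 and 0.17.

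No peak was called for a GFP difference at 48 h that departed from that at 24 and 72 h. The edgeR test gave 0 peaks at an adjusted p under 0.05, with a smallest adjusted p of 0.256. It had 4067 of 71318 peaks at an unadjusted p under 0.05, near the share that this threshold passes without any difference. DESeq2 gave 0 with 95 unadjusted. Of the 4067, 2304 were lower at 48 h than at the other times and 61.1% of these lay at gene ends, while 5.73% of the 1763 higher ones did, where gene ends make up 19.2% of all peaks. Gene ends as a class had medians of 0.25, 0.08 and 0.17 at 24, 48 and 72 h. The median at 48 h depended on scaling and was 0.04 with loess. These shares were not tested and are no result about single peaks. The smallest p was that of the gene-end peak of JUND, an AP-1 factor, 0.01 kb from the gene on chromosome 19. It held 33.8, 30.3 and 33.4 CPM in GFP high against 28.8, 28.7 and 27.4 in GFP low, a change of -0.20 at 48 h, with differences of 0.95 at 24 h and 0.50 at 72 h. The next were a peak inside RUNX3 and the gene ends of EIF4A1, E2F1 and CD70, with changes of -0.12 to -0.50 at 48 h, 0.59 to 1.01 at 24 h and 0.30 to 0.49 at 72 h. In the other direction, a peak near PTGER4, a prostaglandin receptor gene, changed by 0.85 ± 0.25 at 48 h (edgeR adjusted p = 0.0139), with -0.24 and -0.55 at the other times. A peak inside CNIH3 changed by 1.17 ± 0.33, with -0.81 and 0.03. Neither difference between times passed (adjusted p = 0.615 and 0.626).

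Chromosomes differed in their medians. On chromosomes 22 and 17 the GFP low library of 48 h stood furthest from the mean of the 6 libraries, and on chromosome 19 that of 24 h did. The median difference at 48 h was -0.23 over the 756 peaks of chromosome 22, -0.17 over the 2087 of chromosome 17, -0.09 on chromosome 19 and -0.08 on chromosome 16, and it was 0.12 on chromosome X. At 24 h the same 5 chromosomes had 0.07, 0.13, 0.29, 0.05 and 0.12, and at 72 h -0.09, -0.04, 0.02, -0.02 and 0.10. Chromosome 22 had 0 higher peaks and 55 lower (7.28%), and chromosome 17 had 2 higher (0.096%) and 165 lower (7.91%). Over all peaks 1.46% were higher and 8.72% lower, so both directions were called less often on these chromosomes. Against the mean of the 6 libraries, the GFP low library of 48 h stood at -0.19, -0.13 and -0.08 on chromosomes 22, 17 and 19, and the GFP low library of 24 h at 0.11, 0.09 and 0.22. The shift was present at gene ends, with medians of -0.16, -0.12 and -0.07 at 48 h on these chromosomes against 0.42, 0.37 and 0.43 at 24 h. Away from gene ends, chromosome 22 had medians of -0.11, -0.29 and -0.23 at 24, 48 and 72 h. Chromosome 17 had -0.03, -0.20 and -0.15 there, and chromosome 19 had 0.12, -0.11 and -0.09. Chromosomes 22 and 17 thus changed sign between times at gene ends but not away from them. With 1 library per group, a shift of a GFP low library and a shift of the GFP level at its time cannot be told apart. JUND and CD70 lie on chromosome 19 and EIF4A1 on chromosome 17.

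**Figure D5:**
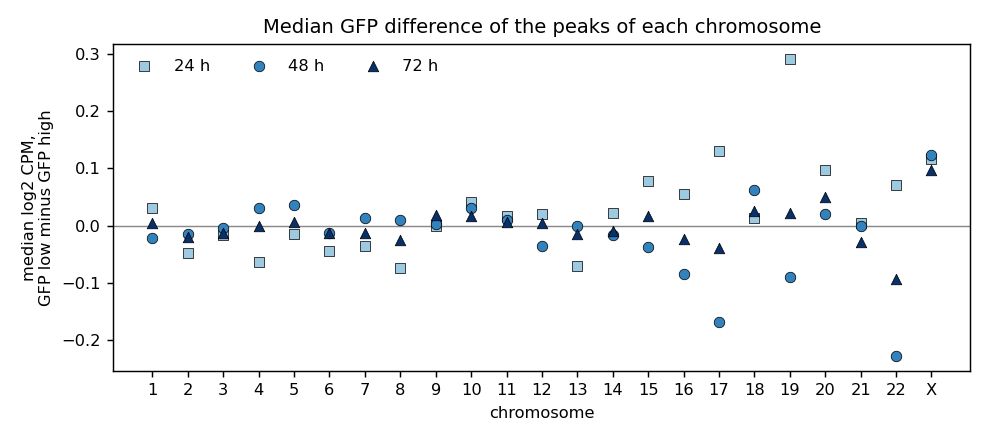
Median difference of log2 CPM, GFP low minus GFP high, over the peaks of each chromosome at 24 h (squares), 48 h (circles) and 72 h (triangles). At 48 h chromosomes 22, 17 and 19 have medians of -0.23, -0.17 and -0.09, below those at 24 and 72 h, and chromosome X has 0.12.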

How the data were processed

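Omni-ATAC-seq counts over 71318 peaks of 501 bp were used as deposited by the authors, as raw counts for 18 columns. The submitters' processing notes name FastQC, BWA, deepTools, R 4.2.1 and hg38. How peaks were called is not given in the sources used here. Columns held 7106939 to 11171849 counts. V numbers did not pair the columns (correlations of deviations -0.0104 to 0.013), and nothing ties them to the replicate numbers of the labels.

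Columns of a group were compared, and their differences were counting noise times a nearly fixed factor, with a variance ratio of 1.78 to 1.81. They were therefore summed to 6 libraries of 22908652 to 29790483 counts. edgeR 4.0.16 (R 4.3.3, TMM factors 0.989 to 1.02, quasi-likelihood test, Benjamini-Hochberg adjustment) was fitted on all peaks with terms for time, for GFP level at 48 h and for GFP level at the other times. This left 1 residual degree of freedom, so p-values rest wholly on the pooled spread and, if the libraries are technical, measure technical spread. The default filter removed 0 peaks. The 2-fold rule used differences of log2 CPM with a prior count of 2. The method, tested on simulated data of the 48 h contrast over 71318 peaks, recovered 5 of 100 peaks changed by 1.5-fold and 55 of 100 changed by 2-fold, and called 2 unchanged peaks. For the test between times it recovered 2 and 25 of 100 and called 3 unchanged peaks. The simulated counts took the spread of the edgeR fit itself, a common dispersion of 0.00879, the same for every peak. The median dispersion in DESeq2 was 0.0407. How many of the calls in the real data are false therefore cannot be judged from this simulation.

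Each peak was given to the RefSeq protein-coding gene that held it, otherwise to the nearest within 50 kb (59527 peaks, 19779 genes). All 446 entries of the 21 gene lists matched a RefSeq gene. RefSeq promoter windows of GRCh38.p14 (250 bases before to 50 after the start) were matched by an overlap of at least 150 bases. Named peaks were those, 1 per gene, with the 10 largest changes in each direction among called peaks with a mean of at least 100 counts and separate columns, the 5 in each direction with the smallest p between times, up to 3 per list with the smallest p, the gene ends of SMARCA4 and SMARCA2, and the genes with the most calls. Other list peaks, and the rule of the 5 smallest p in each direction for start-site examples, were chosen after values were seen. The comparison, lists and rules were chosen with earlier results of these data known. The values of some genes are not reported here. Alternatives were other scalings, filters, prior counts, DESeq2 1.42.0, left-out columns, a replicate block by V number, 1 GFP coefficient for all times and the V number read as the time. Those on start-site peaks were added after seeing the data.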

Additional observations from a re-analysis of the deposited data

Results flagged for a closer look

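The median difference of log2 CPM, GFP low minus GFP high, over the 1936 peaks of chromosome 19 was -0.0901 at 48 h, while it was 0.29 at 24 h and 0.02 at 72 h. It stands out because the sign at 48 h was opposite to that at both other times and each of the 3 medians was at least 0.02 from 0. Away from gene ends the medians were 0.12, -0.11 and -0.09 at 24, 48 and 72 h. There the sign at 48 h was opposite to that at 24 h only. Each value comes from 1 library per GFP level, and the difference between times was not tested. The GFP low libraries of 24 and 48 h stood at 0.22 and -0.08 from the mean of the 6 libraries on this chromosome.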

How the results depend on the processing

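The counts of 6222 lower and 1043 higher peaks stayed within 1.5 times under DESeq2 size factors (5764 and 1260), total count scaling (6297 and 1012), loess scaling (4406 and 854, sharing 4296 and 499 with those reported), no filter (6222 and 1043), a mean count of at least 30 (6216 and 1040) and left-out columns (5571 to 5900 and 983 to 1138). They moved to 26 and 0 with the DESeq2 test, to 14733 and 8611 with the V number read as time, and to 18125 and 9570 with 1 GFP coefficient over the 3 times. The 48 h columns were also tested 3 against 3, which takes the spread between columns, possibly technical, as replicate spread. This gave 12542 and 9431 with no replicate block and 12432 and 9339 with a replicate block by V number. The 161 peaks at least 2-fold higher became 310 with loess scaling, 84 with V as time, 78 with a prior count of 10, and 194 to 345 with left-out columns (254, 259 and 345 without the GFP high columns V0, V1 and V2). The test between times called 1 peak with loess scaling and 0 to 0 with left-out columns. Start-site peaks fitted alone gave 17 lower and 0 higher with TMM and 14 and 0 with GC scaling, and loess scaling of all peaks gave 29 and 26. Of 95 named peaks, none reversed under other scalings, filters or left-out columns. With the DESeq2 test, 13 of the 95 kept their result and 42 were weaker. The rest were given neither label. With V as time, JUND changed by 0.37, EIF4A1 by 0.36 and E2F1 by 0.35, and with 1 GFP coefficient these were 0.41, 0.46 and 0.37, and DCLK3 was -0.60. Loess scaling lost 12 named calls. The causes were not tested. In data simulated with the spread of the edgeR fit, the test at 48 h recovered 5 of 100 changes of 1.5-fold placed over all peaks. Many higher calls were smaller than that, at strong peaks, with quartiles of 0.32 and 0.80 (log2).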

Other observations

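Genes used as markers of other cells also had called peaks. The T-cell list had 8 of 53 peaks lower and 1 higher, against 8.72% and 1.46% of all peaks, with a median difference of -0.20. CD28, a costimulatory receptor, had 4 of 9 peaks called lower. The peak 16.8 kb outside the gene held 35.2, 33.4 and 31.5 CPM in the GFP high columns and 15.7, 16.5 and 16.4 in the GFP low columns (-1.04 ± 0.18, edgeR adjusted p = 5.84e-06), and the CD28 gene-end peak went from 28.1 to 18.4 CPM. The columns did not overlap, as in most called peaks. A peak outside CD2, an adhesion receptor, changed by -1.67 ± 0.38. The gene-end peak of BCL11B, a factor of T-cell commitment, went the other way, from 1.63 to 4.62 CPM (1.504 ± 0.39, adjusted p = 0.00402 in edgeR).

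Of the epithelial and stromal list, 5 of 51 peaks were lower and 1 higher, at VIM, with a median difference of 0.12 and 23 of 51 peaks below 0. The lower peaks with the smallest p lay outside EPCAM, an epithelial adhesion gene (-1.19 ± 0.27), PECAM1, an endothelial adhesion gene (-1.47 ± 0.33), and DCN, a matrix proteoglycan gene (-1.03 ± 0.30). The myeloid list had 1 of 19 lower, 1 of the gene-end peaks of the integrin ITGAM (-0.83 ± 0.27), while the other went from 5.97 to 6.15 CPM and did not pass (0.04). The ITGAM call was lost with loess scaling and without the GFP high column V2 or the GFP low column V1. Peaks of CSF1R (0.75) and S100A9 (0.59) were above 0 and did not pass. All of these are levels of accessibility and give no count of cells.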
